A study of Mus musculus with 92 samples.

Results

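The 8 genes described here encode the enzymes that make citrulline, arginine and ornithine in the gut epithelium: Aldh18a1, Oat, Nags, Cps1, Otc, Ass1, Asl and Arg2. They were selected by name from the 54532 genes of the count tables, as steps of 1 pathway, in a choice that followed an earlier look at these data in which Cps1 was already known to be very low after the inhibitor A-485. The levels of Cps1 in the A-485 groups are therefore a description with no test between groups, and the counts of members called in those groups are out of the other 7. All 8 genes were present in the tables, and 1 of them, Ass1, was too low to be tested in 1 comparison.

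The study measured polyadenylated RNA in 92 libraries of mouse small intestine that fall into 21 groups. All mice and cultures of the deletion experiments carried a tamoxifen-dependent Cre recombinase (CreER) and, except where stated, floxed Eif4g2, a gene for a translation initiation factor related to eIF4G. Rosa26-CreER mice given tamoxifen were sampled at day 9, as crypts and as villi of homozygous animals (Eif4g2 flox/flox, 4 crypt and 5 villus libraries) and of heterozygous animals (flox/+, 5 and 5 libraries). Vil1-CreER mice, whose driver acts in the intestinal epithelium, were given tamoxifen at 100 mg/kg and sampled at month 3, again as crypts (3 homozygous, 4 heterozygous) and villi (6 homozygous, 4 heterozygous). Small intestinal organoids, which are crypt-derived epithelium grown in a medium with EGF, Noggin and R-spondin, formed 3 experiments, all with Rosa26-CreER. In the first set, 3 flox/flox lines were exposed to DMSO or to 0.5 µM 4-hydroxytamoxifen (4-OHT, the active form of tamoxifen) and sampled at day 6. In the second set, all cultures received 4-OHT and differed in genotype (flox/flox, flox/+ or CreER-only with both Eif4g2 copies intact, 4 libraries each). Fetal intestinal spheroids, cultures of fetal epithelium that grow as hollow spheres, came from 6 flox/flox and 5 flox/+ lines, each with DMSO and with 4-OHT at day 6. In the A-485 experiment, 4 organoid lines without induced deletion (1 Eif4g2 +/+, 3 flox/flox) were each given DMSO or 3, 5 or 10 µM of A-485, an inhibitor of the acetyltransferases p300 and CBP, for 4 days. Heterozygous and flox/+ controls also lose 1 copy of Eif4g2 on induction, so most comparisons set the loss of both copies against the loss of 1.

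Library totals ranged from 8652040 to 37611126 reads, with the smallest totals in the A-485 experiment. Eif4g2 matched the labels in every group: 337 to 357 CPM (read counts scaled to a common library size) in heterozygous against 67.9 to 98.3 in homozygous Rosa26-CreER crypts, 437 to 488 against 231 to 240 in Vil1-CreER crypts, and 705 to 794 against 144 to 148 in the first organoid set. The epithelial markers Epcam, Cdh1, Krt8, Krt18 and Krt20 summed to between 2750 and 19600 CPM over all groups, so epithelial RNA was present in each labelled tissue and culture. RNA of other cells was also read in tissue. In homozygous Rosa26-CreER crypts stroma markers summed to 44.9 to 1760 CPM and leukocyte markers to 66 to 1630 CPM. In heterozygous Rosa26-CreER crypts these sums were 41.6 to 780 CPM and 87.1 to 323 CPM. Summed markers of hepatocytes, the other cell type known for this pathway, lay between 0.578 and 51.2 CPM. In bulk RNA of this kind, fewer cells of a type and less RNA per cell cannot be told apart.

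In mammals the small intestine is the main source of circulating citrulline, from which the kidney makes arginine. Aldh18a1 (pyrroline-5-carboxylate synthase) starts from glutamate, and Oat (ornithine aminotransferase) turns its product into ornithine or back. Nags makes N-acetylglutamate, the activator that Cps1 needs to form carbamoyl phosphate in mitochondria, and Otc joins carbamoyl phosphate to ornithine to give citrulline. Ass1 and Asl convert citrulline to arginine, a pair of steps prominent in the fetal and suckling gut and low in the adult gut. Arg2, the mitochondrial arginase, splits arginine into ornithine and urea.

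The genes lie apart in the GRCm38 genome. Cps1 (ENSMUSG00000025991) spans chr1:67123026-67231259 on the plus strand, Otc (ENSMUSG00000031173) chrX:10252305-10321024 on the plus strand, Ass1 (ENSMUSG00000076441) chr2:31470207-31520672 on the plus strand and Asl (ENSMUSG00000025533) chr5:130011258-130029247 on the minus strand. Arg2 (ENSMUSG00000021125) spans chr12:79130777-79156301 on the plus strand, Oat (ENSMUSG00000030934) chr7:132557478-132576398 on the minus strand, Aldh18a1 (ENSMUSG00000025007) chr19:40550257-40588463 on the minus strand and Nags (ENSMUSG00000048217) chr11:102145513-102149477 on the plus strand. The gene lengths given in the tables run from 1428 bases for Arg2 to 5555 for Cps1. Arg2 shares 997 bases with the antisense gene Gm48780 and 285 with Vti1b on the other strand, Nags shares 698 bases with the antisense gene Gm11586, and Aldh18a1 holds the processed pseudogene Gm15801 on its own strand (522 bases). Oat lies whole within the annotated span of Fgfr2 on the same strand. How the counting treated these overlaps is not given in the sources used here, so the counts of these 4 genes carry that uncertainty.

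Promoters of 4 members whose RNA fell together in both organoid sets are shown because they differ in base composition while the genes share that direction. Each is the 250 bases before the annotated start (RefSeq, GRCm38.p6), 5′ to 3′ on the gene's strand, with the E-box letters CACGTG in capitals where they occur: Otc at chrX:10252055-10252304, Nags at chr11:102145263-102145512, Aldh18a1 at chr19:40588464-40588713 and Ass1 at chr2:31470020-31470269. The RefSeq start of Ass1 lies inside the gene span given above, which begins at chr2:31470207. The end of its stretch, with the CACGTG, therefore overlaps that span.
Otc: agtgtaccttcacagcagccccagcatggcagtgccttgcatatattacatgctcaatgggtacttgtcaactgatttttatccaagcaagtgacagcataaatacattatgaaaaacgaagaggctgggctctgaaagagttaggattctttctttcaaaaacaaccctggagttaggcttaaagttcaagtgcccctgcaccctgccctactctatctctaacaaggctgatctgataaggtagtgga
Nags: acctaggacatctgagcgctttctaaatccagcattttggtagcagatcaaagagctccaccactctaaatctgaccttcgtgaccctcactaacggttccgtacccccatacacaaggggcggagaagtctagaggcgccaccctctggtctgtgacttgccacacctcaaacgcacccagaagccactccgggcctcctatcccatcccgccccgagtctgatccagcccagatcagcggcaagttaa
Aldh18a1: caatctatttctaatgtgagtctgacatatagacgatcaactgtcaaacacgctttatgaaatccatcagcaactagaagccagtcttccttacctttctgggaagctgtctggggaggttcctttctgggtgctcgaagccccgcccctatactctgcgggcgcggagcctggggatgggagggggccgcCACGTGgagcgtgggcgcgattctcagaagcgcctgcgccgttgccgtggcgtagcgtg
Ass1: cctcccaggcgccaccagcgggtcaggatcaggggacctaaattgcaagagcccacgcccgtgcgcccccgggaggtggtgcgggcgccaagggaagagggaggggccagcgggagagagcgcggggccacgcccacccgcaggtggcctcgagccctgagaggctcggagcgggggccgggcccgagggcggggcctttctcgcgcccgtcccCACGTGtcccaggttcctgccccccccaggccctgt

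The promoter table used here was matched for 5 of the 8 members, these 4 and Oat. Over the window from 250 bases before to 50 after the start, the Otc promoter held 1 CpG and 44.3% G or C, against 14 CpG in Nags, 22 in Oat, 23 in Aldh18a1 and 27 in Ass1, whose window was 74% G or C. The medians over 32851 promoters were 7 CpG and 52.7%. CACGTG occurred once in the Ass1 window (-36 to -31 from the start) and once in that of Aldh18a1 (-59 to -54), a sequence that 7.15% of promoters held. The other letters searched on both strands, CAAAGTCCA (HNF4, in 0.475% of promoters), TTGCNNAA (C/EBP, 10.8%), TGATGNAA (a C/EBP-ATF element, 3.97%) and TATAAA (13.6%), occurred in none of the 5 windows. The motifs do not overlap each other, and a match is only a match of letters.

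**Figure D1:**
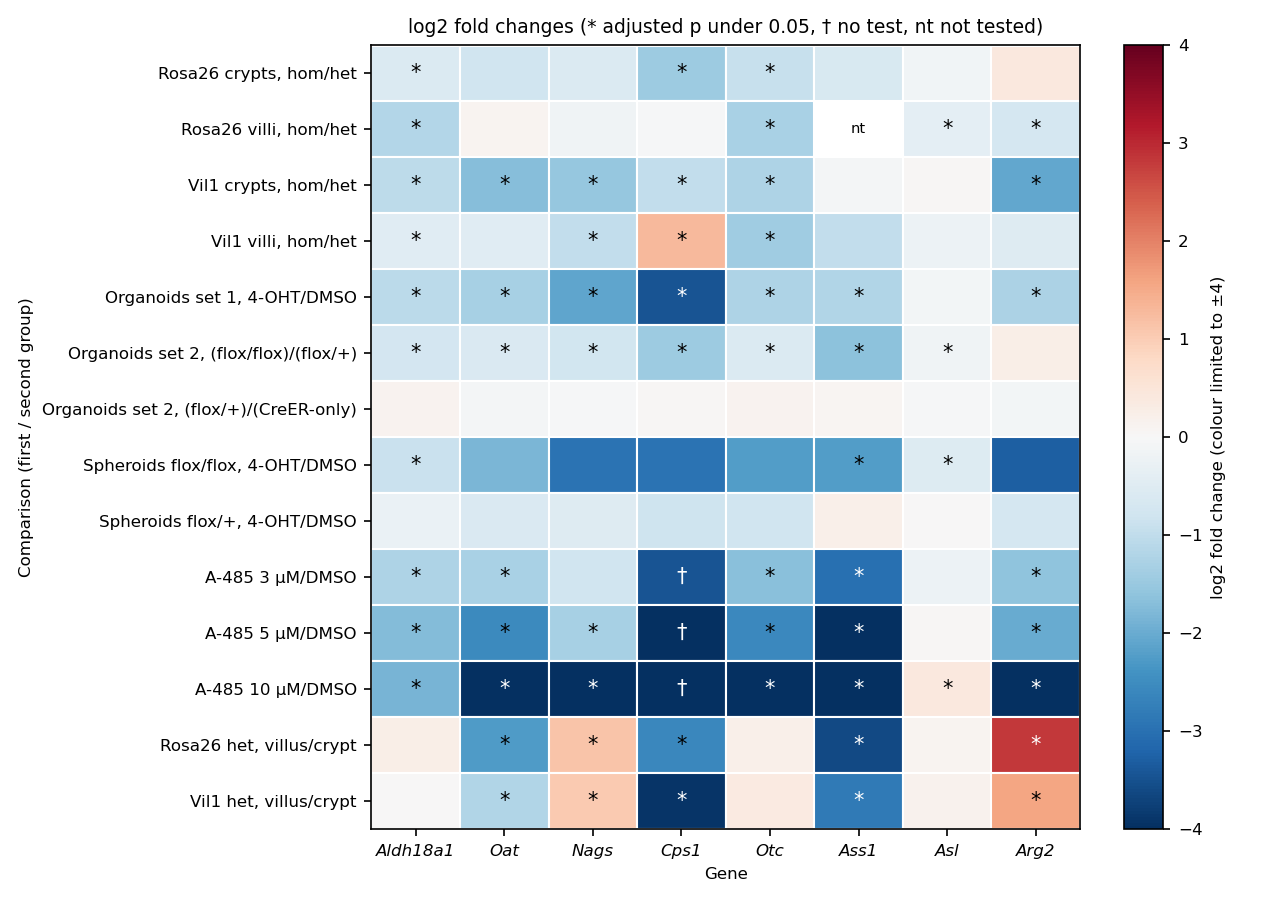
Log2 fold change of each member (columns, ordered along the pathway) in 14 comparisons (rows, first group against second). Blue is lower and red higher in the first group, the colour stops at ±4, an asterisk marks an adjusted p under 0.05, a dagger marks Cps1 values given with no test, and nt marks a gene too low to be tested. Otc and Aldh18a1 are blue with an asterisk in all 4 tissue comparisons of genotype, whereas the bottom rows show Cps1, Ass1 and Oat lower and Arg2 and Nags higher in villi than in crypts of heterozygous mice.

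In heterozygous mice Cps1, Oat and Ass1 were lower in villi than in crypts under both drivers, Arg2 and Nags were higher in villi, and Otc, Asl and Aldh18a1 did not pass the test in either. Thus 3 of the 8 members were lower and 2 higher in villi under each driver. Among all genes tested, 40.6% were lower and 36.4% higher in Rosa26-CreER villi, and 35.2% and 32.7% in Vil1-CreER villi, so a call in this contrast was common and the counts are not particular to the members. Tests were edgeR's quasi-likelihood test with Benjamini-Hochberg adjustment over all genes tested, a gene being called at an adjusted p under 0.05, and fold changes are given on the log2 scale with their standard error (SE).

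Cps1, the entry of ammonia into the pathway, stood at 2070, 2620, 2040, 1840 and 2290 CPM in the 5 heterozygous Rosa26-CreER crypts and at 450, 336, 251, 364 and 353 CPM in the villi of the same animals. Every crypt library lay above every villus library, and the log2 difference of villus against crypt was -2.62 (SE 0.16, adjusted p = 2.61e-08). Under Vil1-CreER the crypts held 1970, 1670, 2040 and 2290 CPM and the villi 185, 145, 112 and 101 CPM, a log2 difference of -3.93 (SE 0.23, adjusted p = 2.76e-07). Oat was 1050 ± 177 CPM in Rosa26-CreER crypts and 219 ± 34.7 CPM in villi (SD, n = 5 each), and fell by 2.26 (SE 0.15, adjusted p = 4.42e-08). Under Vil1-CreER Oat fell by 1.21 (SE 0.24, adjusted p = 0.00108). Ass1 was low throughout: 8.27 ± 1.14 CPM in Rosa26-CreER crypts and 0.676 ± 0.3 CPM in villi (SD, n = 5 each), with log2 differences of -3.60 (SE 0.28) and -2.83 (SE 0.34) under the Rosa26 and Vil1 drivers.

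Arg2, the arginase, and Nags, which makes the activator of Cps1, were the members higher in villi. Arg2 read 56, 58.9, 40.1, 66.4 and 72.9 CPM in heterozygous Rosa26-CreER crypts and 431, 468, 289, 465 and 412 CPM in villi, with no overlap and a log2 difference of 2.82 (SE 0.17, adjusted p = 2.18e-08). Under Vil1-CreER the difference was 1.58 (SE 0.23, adjusted p = 0.000169). Nags was 34.9 ± 2.76 CPM in Rosa26-CreER crypts and 76.4 ± 10.3 CPM in villi (SD, n = 5 each), and its log2 differences were 1.14 (SE 0.10) and 1.04 (SE 0.13) under the Rosa26 and Vil1 drivers. Otc was nearly level, at 104 ± 13.7 CPM in crypts and 123 ± 21.1 CPM in villi (SD, n = 5 each; log2 difference 0.24, SE 0.13, adjusted p = 0.103). The Otc difference under Vil1-CreER was 0.35 (adjusted p = 0.055). Leaving out crypt replicate 5 of Rosa26-CreER brought Otc to an adjusted p of 0.0465, and it was also called without Vil1-CreER crypt replicate 4 or villus replicate 3.

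Per kilobase of the gene length given in the tables, which allows genes to be ranked, Oat (446 CPM per kb) and Cps1 (391) led in heterozygous Rosa26-CreER crypts, and their libraries overlapped (350 to 524 against 331 to 471). Aldh18a1 (58.1), Arg2 (41.2), Otc (24.6) and Nags (12.3) followed, and Asl (5.07) and Ass1 (3.43), the enzymes that turn citrulline into arginine, came last. In villi the order was Arg2 (289), Oat (92.6), Aldh18a1 (69.2), Cps1 (63.1), Otc (28.9), Nags (26.9), Asl (5.46) and Ass1 (0.28). The last places in both tissues were therefore held by the same 2 enzymes.

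Cps1, Otc and Aldh18a1 were lower in homozygous than in heterozygous crypts under both drivers. Of the 8 members, 3 were lower and 0 higher in homozygous than in heterozygous Rosa26-CreER crypts, where 11.6% of 15846 tested genes were lower and 8.63% higher. In Vil1-CreER crypts 6 were lower and 0 higher, beside 17.7% and 11.6% of 16954 tested genes. The median log2 difference of the members was -0.61 in Rosa26-CreER and -1.14 in Vil1-CreER crypts, beside medians over all tested genes of 0.04 and 0.01.

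Cps1 read 608, 447, 744 and 1270 CPM in the homozygous Rosa26-CreER crypts, all below the 5 heterozygous libraries, and fell by 1.46 (SE 0.26, adjusted p = 0.00505). In Vil1-CreER crypts it read 884, 1050 and 1100 CPM against 1970, 1670, 2040 and 2290, and fell by 0.97 (SE 0.14, adjusted p = 0.00161). Homozygous crypts thus held 35.4% and 50.8% of the heterozygous mean in Rosa26-CreER and Vil1-CreER mice, respectively. The Vil1-CreER call was lost when the spread was shared with the villus groups (-0.98, adjusted p = 0.0593).

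Otc, which makes citrulline, read 55.8, 37, 48.9 and 72.9 CPM in homozygous Rosa26-CreER crypts and 86.6, 102, 99.5, 111 and 123 CPM in heterozygous ones. In Vil1-CreER crypts it read 51.2, 59.3 and 64.3 CPM against 123, 119, 153 and 160 CPM. The groups did not overlap in either, and Otc fell by 0.91 (SE 0.17, adjusted p = 0.00585) and by 1.25 (SE 0.14, adjusted p = 0.000511). Aldh18a1, at the head of the route from glutamate, fell by 0.58 (SE 0.15, adjusted p = 0.0237) and by 1.04 (SE 0.13, adjusted p = 0.00107) in the same crypts of Rosa26-CreER and Vil1-CreER mice. The Rosa26-CreER call of Aldh18a1 was lost without heterozygous replicate 2 or 5 or homozygous replicate 1 or 4, with adjusted p up to 0.0827.

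Oat, Arg2 and Nags passed the test in Vil1-CreER crypts, and their difference between the drivers, which were scaled apart, was not tested. Oat read 217, 365 and 395 CPM in homozygous against 841, 996, 1090 and 1320 CPM in heterozygous Vil1-CreER crypts, and fell by 1.70 (SE 0.24, adjusted p = 0.00198). Arg2 read 17.9, 24.5 and 31.3 CPM against 84.4, 60.2, 134 and 133 CPM, and fell by 2.06 (SE 0.35, adjusted p = 0.0062). Nags read 5.06, 5.91 and 7.67 CPM against 17.8, 14.6, 20.2 and 20.8 CPM, and fell by 1.56 (SE 0.18, adjusted p = 0.000734). None of these groups overlapped.

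In Rosa26-CreER crypts Oat read 508, 316, 565 and 972 CPM in homozygous and 827, 1220, 944, 1030 and 1240 CPM in heterozygous libraries (log2 difference -0.80, SE 0.27, adjusted p = 0.0618). Without homozygous replicate 5, the highest of its group, the Oat difference was -1.10 with an adjusted p of 0.00626. Nags read 30, 13.3, 18.1 and 28 CPM against 31.7, 34.3, 33.2, 38.8 and 36.4 CPM, with no overlap and a difference of -0.59 (SE 0.21, adjusted p = 0.0736, and 0.0441 without homozygous replicate 1). Arg2 differed by 0.43 (SE 0.33, adjusted p = 0.388). Ass1 and Asl passed the test in neither driver's crypts, and their Vil1-CreER differences were -0.08 (SE 0.18) and 0.06 (SE 0.09).

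Other measures moved with genotype in the same crypts. Summed stem cell markers (Lgr5, Olfm4, Ascl2, Smoc2, Axin2) lay between 3830 and 6540 CPM in heterozygous and between 201 and 854 CPM in homozygous Rosa26-CreER crypts, and between 4890 and 5460 and between 284 and 523 CPM in Vil1-CreER crypts. Over the 5 markers the median log2 difference was -1.52 in Rosa26-CreER crypts, with 4 called lower, and -1.38 in Vil1-CreER crypts, with 3 called lower. Summed Paneth cell markers lay between 15100 and 21000 against 2160 and 9630 CPM in Rosa26-CreER crypts, and between 3040 and 6780 against 356 and 909 CPM in Vil1-CreER crypts. Summed enterocyte markers overlapped between heterozygous and homozygous crypts (2790 to 5340 against 3080 to 10500 CPM for Rosa26-CreER, 2250 to 5000 against 1050 to 2370 CPM for Vil1-CreER), and 0 of 10 were called in Rosa26-CreER but 6 of 10 were lower in Vil1-CreER crypts. The share of reads from the mitochondrial genome was 6.24 to 12.4% in heterozygous and 13.7 to 25.2% in homozygous Rosa26-CreER crypts and 17.5 to 30.8% against 30.4 to 40.3% in Vil1-CreER crypts. Summed leukocyte markers reached 1630 CPM in homozygous against 323 CPM in heterozygous Rosa26-CreER crypts. Their part in the members' values was not tested.

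Sex was uneven in the Rosa26-CreER mice, and Otc is X-linked. The Y-linked gene Ddx3y was read in all 10 heterozygous libraries but in 1 of 4 homozygous crypt and 2 of 5 homozygous villus libraries. With the presence of Ddx3y as a covariate, the log2 differences in Rosa26-CreER crypts were -1.75 for Cps1, -0.82 for Otc and -0.43 for Aldh18a1. These differences set the 1 homozygous crypt library with Ddx3y against the heterozygous libraries. Whether the crypt calls hold apart from sex therefore cannot be decided from that fit. In Rosa26-CreER villi under the same covariate, where the difference rests on the 2 homozygous libraries with Ddx3y, Otc (-1.43, adjusted p = 0.0019), Asl and Aldh18a1 remained called. Arg2 did not (-0.73, adjusted p = 0.109).

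In villi Otc and Aldh18a1 fell under both drivers, Cps1 did not pass the test in Rosa26-CreER villi and was higher in homozygous than in heterozygous Vil1-CreER villi, and Nags fell under Vil1-CreER. Of the 7 members tested in Rosa26-CreER villi 4 were lower and 0 higher, where 18.2% of 13579 tested genes were lower. In Vil1-CreER villi 3 of 8 were lower and 1 higher, beside 21.6% and 20.9% of 15107 tested genes. The medians of the members were -0.39 and -0.50, beside -0.01 and 0.05 for all genes.

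Otc read 53.3, 40.4, 43.6, 59.8 and 61.1 CPM in homozygous and 153, 112, 97.5, 131 and 118 CPM in heterozygous Rosa26-CreER villi, and fell by 1.29 (SE 0.15, adjusted p = 0.000146). In Vil1-CreER villi it read 64.2 to 78.6 CPM (median 68.7, n = 6) against 219, 174, 145 and 195 CPM, and fell by 1.42 (SE 0.12, adjusted p = 1.12e-06). Every homozygous villus library lay below every heterozygous one, and the homozygous means were 42.2% and 37.9% of the heterozygous means. Otc was the only member lower without overlap in all 4 tissue comparisons of genotype, and how many of all genes were so was not counted. Markers of secretory cells moved with genotype in the same villi. In Vil1-CreER villi goblet markers summed to 6730 to 11300 CPM in heterozygous and 1240 to 2090 CPM in homozygous libraries, tuft cell markers to 68.8 to 113 against 3.86 to 6.7 CPM, and enteroendocrine markers to 298 to 558 against 56.3 to 104 CPM. In Rosa26-CreER villi the tuft sums were 62.5 to 330 against 17.3 to 60.6 CPM, the enteroendocrine sums 221 to 445 against 46.2 to 231 CPM and the goblet sums 5280 to 13900 against 1890 to 9540 CPM. Enterocyte sums overlapped under both drivers (57100 to 76200 against 55300 to 82100 CPM for Rosa26-CreER, 42100 to 54100 against 36700 to 63700 CPM for Vil1-CreER). Their part in the members' values was not tested.

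Cps1 read 288, 317, 362, 442 and 341 CPM in homozygous Rosa26-CreER villi, within the range of the heterozygous villi (log2 difference -0.05, SE 0.15, adjusted p = 0.832). In homozygous Vil1-CreER villi it read from 175 to 629 CPM (median 293, n = 6) against 185, 145, 112 and 101 CPM, and was higher by 1.28 (SE 0.34, adjusted p = 0.0103), with 1 homozygous library inside the heterozygous range. In these Vil1-CreER villi 1 of 5 stem cell markers was called higher and 1 lower (median log2 difference 0.33, sums of 58.9 to 200 in homozygous against 81 to 198 CPM in heterozygous libraries), and 4 of 5 Paneth cell markers were lower (26 to 98.7 against 133 to 334 CPM). The part of these markers in the Cps1 difference was not tested.

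Tested as an interaction, the genotype effect on Cps1 was less negative in villi than in crypts by 1.50 (SE 0.33, adjusted p = 0.00982) under Rosa26-CreER and by 2.27 (SE 0.46, adjusted p = 0.00551) under Vil1-CreER. Cps1 was the 1 member called in the Rosa26-CreER interaction, with 0 called lower, beside 6.68% of tested genes higher. In the Vil1-CreER interaction Arg2 (1.56, SE 0.40, adjusted p = 0.0166) and Oat (1.23, SE 0.40, adjusted p = 0.0478) were also higher, 3 members in all beside 9.38% of tested genes. With the animal as a block, Oat joined Cps1 in Rosa26-CreER mice (1.12, adjusted p = 0.0117). Leaving out Vil1-CreER crypt homozygous replicate 1 left Cps1 as the 1 called member, and the Oat call was lost in 14 of 17 such fits. In Rosa26-CreER mice, Arg2 was called without crypt homozygous replicate 3 (adjusted p = 0.0367), and Aldh18a1 without villus homozygous replicate 5 (adjusted p = 0.0453).

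The other members of the villus were less uniform. Aldh18a1 read 106, 82.5, 89.2, 126 and 241 CPM in homozygous and 278, 248, 190, 313 and 380 CPM in heterozygous Rosa26-CreER villi, and fell by 1.17 (SE 0.30, adjusted p = 0.0133), with 1 homozygous library above the lowest heterozygous one. In Vil1-CreER villi Aldh18a1 fell by 0.49 (adjusted p = 0.0486), a call lost without heterozygous replicate 1, 2 or 4 or homozygous replicate 1, 4, 5 or 6 (adjusted p up to 0.153). Nags read from 15.3 to 24.7 CPM (median 19.9, n = 6) in homozygous Vil1-CreER villi, all below the heterozygous 35.9, 35.5, 40.1 and 44.5 CPM, and fell by 0.98 (SE 0.16, adjusted p = 0.000392). In Rosa26-CreER villi Nags differed by -0.17 (SE 0.13, adjusted p = 0.326).

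Asl read 22, 19.3, 19.8, 21.5 and 21.3 CPM in homozygous against 28, 27.9, 23, 26.4 and 26.6 CPM in heterozygous Rosa26-CreER villi, and fell by 0.39 (SE 0.08, adjusted p = 0.0047). The heterozygous library at 23 CPM, replicate 3, had 24.5% mitochondrial reads against 2.74 to 9.63% in the other heterozygous villi, and without it the Asl difference was -0.40 (adjusted p = 0.00497). Arg2 fell by 0.70 there (SE 0.21, adjusted p = 0.0252), with overlapping groups (167 to 346 against 289 to 468 CPM). That Arg2 call was lost without heterozygous replicate 1, 2, 4 or 5 or homozygous replicate 3 (adjusted p up to 0.063). Ass1, not tested in these villi, read between 0 and 0.337 CPM in homozygous and between 0.376 and 1.11 CPM in heterozygous libraries. The homozygous library with no Ass1 read allows up to 0.0979 CPM, counting 3 reads as the limit for a count of 0.

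In Vil1-CreER villi Arg2 (-0.52, SE 0.21, adjusted p = 0.0654), Oat (-0.48, SE 0.27, adjusted p = 0.164) and Ass1 (-0.99, SE 0.50, adjusted p = 0.126) did not pass the test. Each was called when 1 library was left out: Arg2 without homozygous replicate 5 (adjusted p = 0.00498), Oat without heterozygous replicate 3 (0.0441) and Ass1 without homozygous replicate 1 (0.0396).

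**Figure D2:**
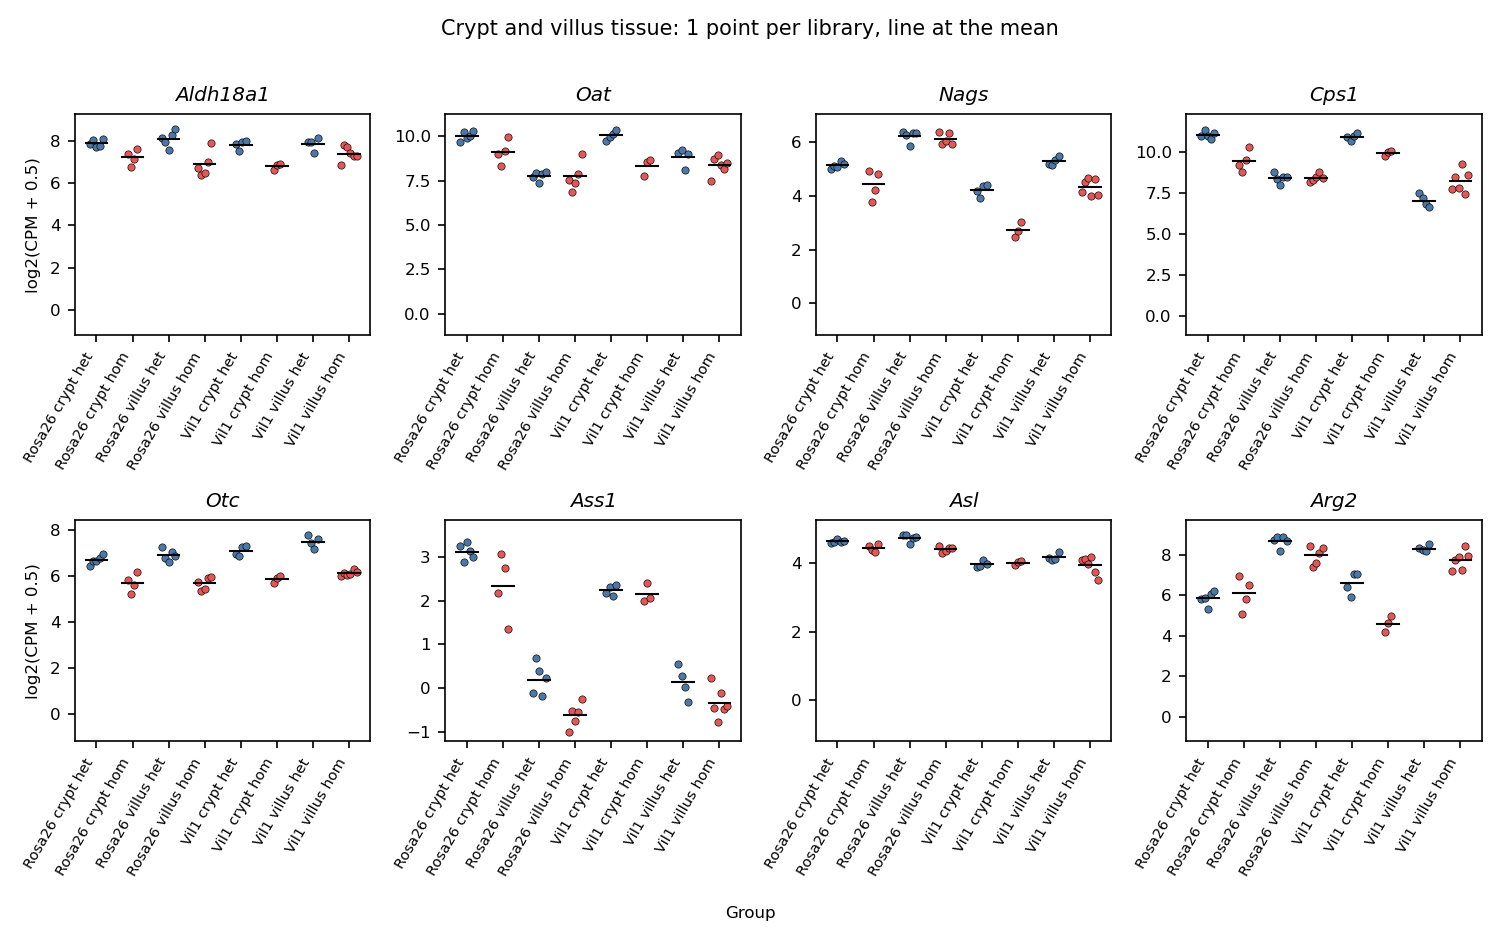
Level of each member as log2(CPM + 0.5) in crypt and villus libraries of both drivers (het, heterozygous, blue; hom, homozygous, red), with 1 point per library and a line at the mean of the log2 values. The drivers were scaled apart. In the Otc panel every homozygous point lies below the heterozygous points of the same tissue and driver, and in the Cps1 panel the homozygous points are lower in crypts (447 to 1270 against 1840 to 2620 CPM for Rosa26) but not in villi.

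In organoids, where only epithelium is present, 7 of the 8 members fell after deletion of both copies in each set. In the first set they were Cps1, Nags, Oat, Arg2, Otc, Ass1 and Aldh18a1, beside 17.2% of 15297 tested genes lower and 18.2% higher. In the second set, flox/flox against flox/+, they were the same genes with Asl in place of Arg2, beside 24.3% of 14220 tested genes lower. The same 7 members were lower in flox/flox than in CreER-only organoids, where 23.5% of genes were lower, a comparison that shares the flox/flox libraries with the former. No member was higher in any of these comparisons, and the members' medians were -1.25 in the first set and -0.67 in the second, beside 0.03 and -0.01 for all genes.

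Cps1 showed the largest member difference of the first set. It read 1630, 1490 and 1700 CPM with DMSO and 109, 192 and 138 CPM with 4-OHT, and fell by 3.46 (SE 0.21, adjusted p = 0.000216) to 9.08% of the DMSO mean. In the second set it read 1520, 1400, 705 and 950 CPM in flox/flox against 2830, 2960, 3240 and 3480 CPM in flox/+ and 2360, 2970, 3230 and 3480 CPM in CreER-only organoids. Against flox/+ it fell by 1.46 (SE 0.23, adjusted p = 0.000477), and the deletion groups overlapped no control group in either set.

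Otc and Nags fell in both sets as well. Otc read 92.6, 99.2 and 109 CPM with DMSO and 37.9, 48.3 and 42 CPM with 4-OHT in the first set (log2 difference -1.23, SE 0.11, adjusted p = 0.000559), and 74.4, 71.4, 79.7 and 70.4 CPM in flox/flox against 106, 111, 98.5 and 121 CPM in flox/+ organoids (log2 difference -0.57, SE 0.07, adjusted p = 1.26e-05). Nags read 31.3, 33.3 and 49.3 CPM with DMSO and 6.47, 8.93 and 11.1 CPM with 4-OHT (log2 difference -2.10, SE 0.25, adjusted p = 0.00122), and fell by 0.77 (SE 0.15, adjusted p = 0.00086) in the second set. No deletion library of either gene reached a control library.

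Oat and Aldh18a1, which act on the route to ornithine, also fell in both sets. Oat read 1140, 1240 and 1060 CPM with DMSO and 396, 587 and 395 CPM with 4-OHT, and fell by 1.32 (SE 0.17, adjusted p = 0.00159). Oat in the second set read 709, 690, 690 and 738 CPM in flox/flox against 1060, 1080, 1140 and 1020 CPM in flox/+ organoids, and fell by 0.61 (SE 0.07, adjusted p = 6.07e-06). Aldh18a1 fell by 1.07 (SE 0.10, adjusted p = 0.000559) and by 0.72 (SE 0.10, adjusted p = 5.37e-05). For both genes the ranges of the groups were apart in each set.

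Ass1 and Asl, which make arginine from citrulline, differed in size. Ass1 read 12.2, 9.43 and 4.52 CPM with DMSO and 3.55, 4.08 and 3.75 CPM with 4-OHT, and fell by 1.20 (SE 0.34, adjusted p = 0.0298). That call held only when DMSO replicate 3 was the library left out (adjusted p up to 0.104 otherwise). In the second set Ass1 read 3.59, 2.84, 2.85 and 2.64 CPM in flox/flox against 6.93, 8.61, 12.3 and 8.91 CPM in flox/+ organoids, and fell by 1.63 (SE 0.21, adjusted p = 1.66e-05). Asl read 47.4, 47.3 and 47 CPM with 4-OHT against 52.1, 51.1 and 51.2 CPM with DMSO, apart in range but with a difference of -0.12 (SE 0.07, adjusted p = 0.213). Asl fell by 0.17 in the second set (SE 0.07, adjusted p = 0.0423), a call kept in 1 of 8 fits that left out a library, the one without flox/flox replicate 2. Against CreER-only organoids Asl fell by 0.21 (adjusted p = 0.0174), a call lost without CreER-only replicate 3 or flox/flox replicate 4.

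Arg2 was called in the first set and not in the second, and the difference between the sets was not tested. It read 91.7, 80.6 and 148 CPM with DMSO and 38.6, 48.4 and 45.9 CPM with 4-OHT in the first set, and fell by 1.27 (SE 0.23, adjusted p = 0.00548). In the second set it read 34.7, 34, 63.8 and 48.4 CPM in flox/flox against 50.5, 47.9, 25.3 and 27.3 CPM in flox/+ organoids, overlapping throughout (0.26, SE 0.28, adjusted p = 0.485).

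Loss of 1 copy of Eif4g2 gave no member call. Between flox/+ and CreER-only organoids 0 of 8 members passed edgeR's test, beside 0.113% of tested genes (16 genes, or 145 with DESeq2, and 1481 at an unadjusted p under 0.05). The log2 differences of the members lay between -0.12 for Arg2 and 0.15 for Aldh18a1, with SEs from 0.07 for Asl to 0.28 for Arg2. Summed stem cell markers lay between 5430 and 7360 CPM in flox/+ and between 1480 and 2330 CPM in flox/flox organoids of the second set, and between 1170 and 1640 CPM with DMSO and 198 and 255 CPM with 4-OHT in the first. Over the 5 stem cell markers the median log2 difference was -0.85 in the second set, flox/flox against flox/+, and -2.11 in the first. Enterocyte markers lay between 12300 and 16700 CPM with DMSO and 5580 and 8120 CPM with 4-OHT in the first set, and overlapped in the second (4350 to 7640 CPM in flox/flox against 4800 to 9240 CPM in flox/+). Their part in the members' falls was not tested.

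**Figure D3:**
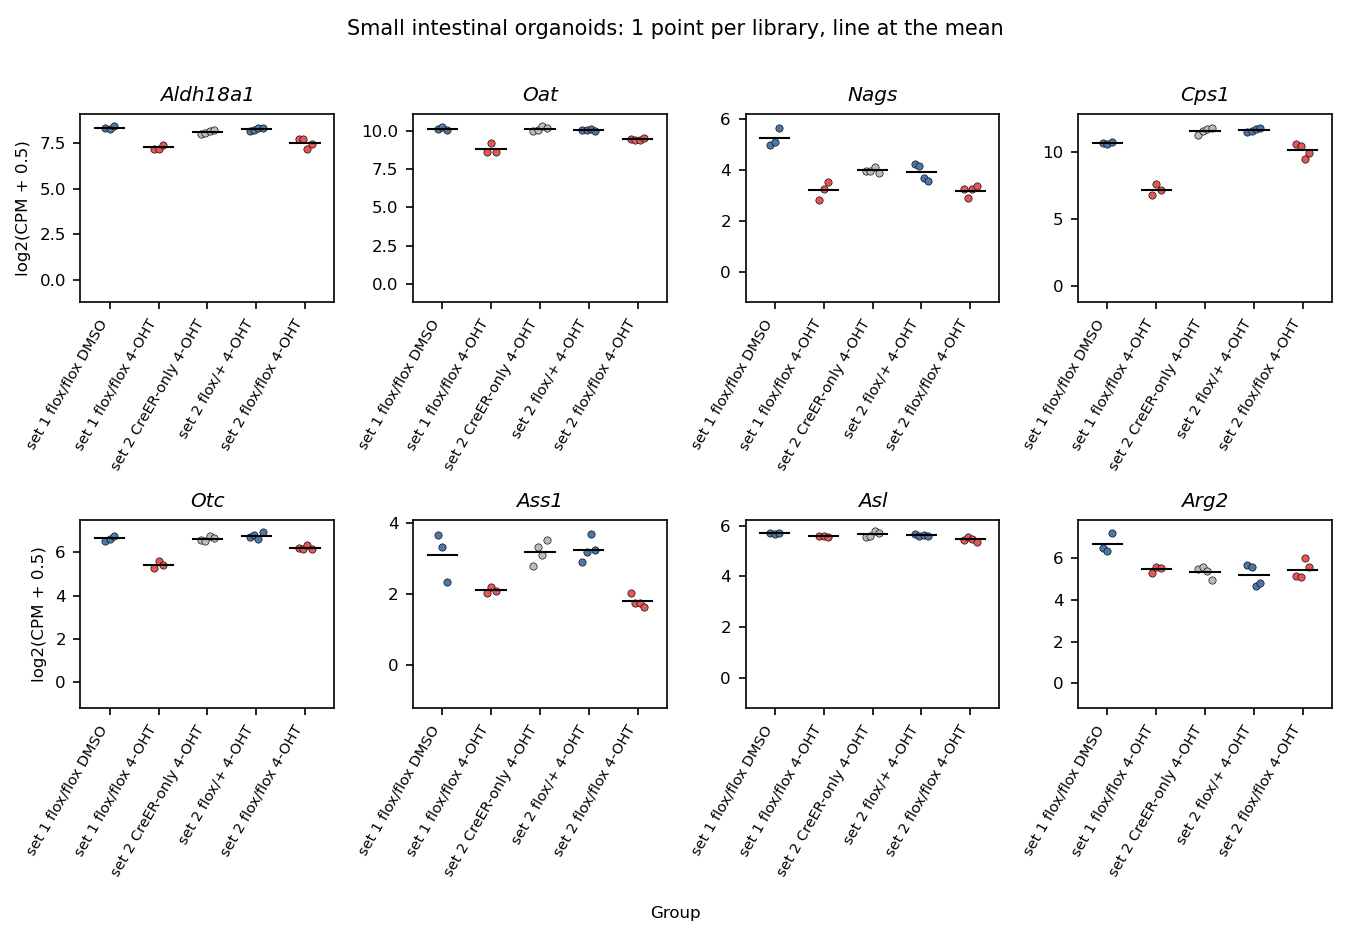
Level of each member as log2(CPM + 0.5) in small intestinal organoids of both sets, with 1 point per library and a line at the mean of the log2 values. Deletion groups are red, flox/flox DMSO and flox/+ groups blue and CreER-only grey, and levels are not scaled between the sets. For Cps1, Otc, Oat, Aldh18a1, Nags and Ass1 the red points lie below their controls in both sets, and for Arg2 they do so in the first set only.

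Fetal spheroids differed widely between lines before any deletion. With DMSO, Cps1 read 1520, 49.9, 2050, 16, 480 and 268 CPM in the 6 flox/flox lines and 25, 19.1, 32.4, 1560 and 3110 CPM in the 5 flox/+ lines. Flox/flox replicates 1 and 3 and flox/+ replicates 4 and 5 were the highest, and the same 4 lines had summed stem cell markers of 3170, 4910, 3840 and 10500 CPM, against 116 to 412 CPM in the other lines. Paneth marker sums were also high in those lines (1800, 3990, 4480 and 5110 CPM, against 64.5 to 315 CPM in the others). Enteroendocrine sums were 739, 993, 1070 and 1480 CPM there and 50.6 to 856 CPM in the others, with the 856 CPM in flox/flox replicate 4, the line with the lowest Cps1. What part these have in the spread of Cps1 was not tested. Ass1 with DMSO was 52.7, 106, 126, 21.5 and 36.9 CPM in the 5 flox/+ lines, lowest in the 2 lines highest in Cps1. In the flox/flox lines it read from 29.6 to 147 CPM (median 96.8, n = 6), lowest in replicate 4, which had the lowest Cps1, and highest in replicate 1, which had 1520 CPM of Cps1.

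In the fit that treats all libraries as independent, Ass1, Asl and Aldh18a1 fell with 4-OHT in flox/flox spheroids, 3 of 8 members with 0 higher, beside 10.0% of 15032 tested genes lower. Because DMSO and 4-OHT cultures came from the same lines, a fit with the line as a block is given beside it, and in it 8 of 8 members fell, beside 17.1% of 13430 tested genes. In the same flox/flox lines goblet sums lay between 2370 and 17700 CPM with DMSO and between 120 and 1250 CPM with 4-OHT. Median sums went from 4420 to 440 CPM for enterocytes, 491 to 28.1 CPM for enteroendocrine cells and 206 to 12.7 CPM for Paneth cells. The ranges behind these medians overlapped, and in replicate 3 the enterocyte sum rose from 4360 to 7620 CPM. Without the block 3 of 5 goblet, 3 of 10 enterocyte, 1 of 5 enteroendocrine and 0 of 5 Paneth markers were called lower. Their part in the members' values was not tested. The number of genes called in either direction was 2864 without the block and 4649 with it. The fit with the block held only the flox/flox groups, whereas the other shared its spread over all spheroid groups. The block is therefore not the only difference between the fits. The members' median difference without the block was -2.24, beside -0.02 for all genes.

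Cps1 with 4-OHT read 153, 0.207, 403, 0, 1.16 and 5.25 CPM in the order of the flox/flox lines above, lower than with DMSO in 6 of 6 lines. The group ranges overlapped, and the difference was -2.96 (SE 1.85, adjusted p = 0.293) without the block and -5.40 (SE 1.09, adjusted p = 0.0111) with it. The line with no Cps1 read allows up to 0.122 CPM at 3 reads. Otc read 153, 55.6, 107, 45.6, 129 and 54.8 CPM with DMSO and 44.7, 1.24, 64.3, 0, 3.05 and 3.73 CPM with 4-OHT, lower in 6 of 6 lines (-3.92, SE 1.09, adjusted p = 0.034 with the block, and 0.174 without it).

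Nags read 12.2, 1.87, 5.4, 0.802, 13.5 and 6.77 CPM with DMSO and 3, 0, 2, 0, 0.158 and 0.157 CPM with 4-OHT (-3.88, SE 0.84, adjusted p = 0.00874 with the block, 0.116 without). Oat read from 262 to 2470 CPM (median 1260, n = 6) with DMSO and from 82.6 to 1080 CPM (median 152, n = 6) with 4-OHT (-2.05, SE 0.27, adjusted p = 0.00132 with the block, 0.206 without). Both genes were lower with 4-OHT in 6 of 6 lines. Arg2 was lower in 5 of 6 lines and read 1.76 CPM with DMSO and 2.47 CPM with 4-OHT in replicate 3 (-3.78, SE 1.03, adjusted p = 0.0263 with the block, 0.0868 without). Its levels were near 0, from 0.867 to 27.3 CPM with DMSO and from 0 to 2.65 CPM with 4-OHT. With 4-OHT, Arg2 and Nags each had no read in 2 of the 6 libraries.

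Ass1, which uses citrulline, fell in both fits. It read 147, 138, 44.9, 29.6, 140 and 56 CPM with DMSO and 14.1, 36, 6.58, 28.3, 27.1 and 5.77 CPM with 4-OHT, with log2 differences of -2.24 (SE 0.61, adjusted p = 0.0142) without the block and -2.34 (adjusted p = 0.00897) with it. Asl fell by 0.54 (SE 0.18, adjusted p = 0.0411) and Aldh18a1 fell by 0.89 (SE 0.29, adjusted p = 0.035) without the block. Without it, those calls were lost in 8 of 12 and 7 of 12 fits that left out 1 library, and Ass1 was the 1 member called without 4-OHT replicate 1, 4 or 6 or DMSO replicate 1 or 5.

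With 4-OHT in flox/+ spheroids, which lose 1 copy, 0 members and 0% of genes passed edgeR's test (15 genes at an unadjusted p under 0.05, 0 members and 1 gene with the line as a block). Cps1 read 5.03, 11.3, 38.8, 681 and 1930 CPM with 4-OHT, lower in 4 of 5 lines, and Otc, Oat, Aldh18a1 and Nags were lower in 5 of 5 lines, with block differences of -1.02 for Otc (adjusted p = 0.322) and -0.51 for Oat (adjusted p = 0.383). The difference between genotypes in the 4-OHT effect gave 0 members without the block (1.62% of genes, 2096 genes at an unadjusted p under 0.05). With the line as a block 6 members were lower in that interaction, beside 10.1% of tested genes. They were Cps1 (-4.34, SE 1.19, adjusted p = 0.0311), Nags (-3.00, adjusted p = 0.0452), Ass1 (-2.40, adjusted p = 0.0139), Oat (-1.53, adjusted p = 0.0143), Aldh18a1 (-0.56, adjusted p = 0.0266) and Asl (-0.50, adjusted p = 0.0452). Otc (-2.77, adjusted p = 0.14) and Arg2 (-3.18, adjusted p = 0.103) did not pass.

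Between genotypes with 4-OHT, Ass1 was the 1 of 8 members called lower in flox/flox than in flox/+ spheroids (-2.03, SE 0.62, adjusted p = 0.0423), beside 6.13% of genes lower. The call was lost in 7 of 11 fits that left out a library, and with no filter on low counts (adjusted p = 0.0992). With DMSO, 0 members and 0% of genes differed between the genotypes by edgeR (2 genes by DESeq2, 1084 genes at an unadjusted p under 0.05).

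**Figure D4:**
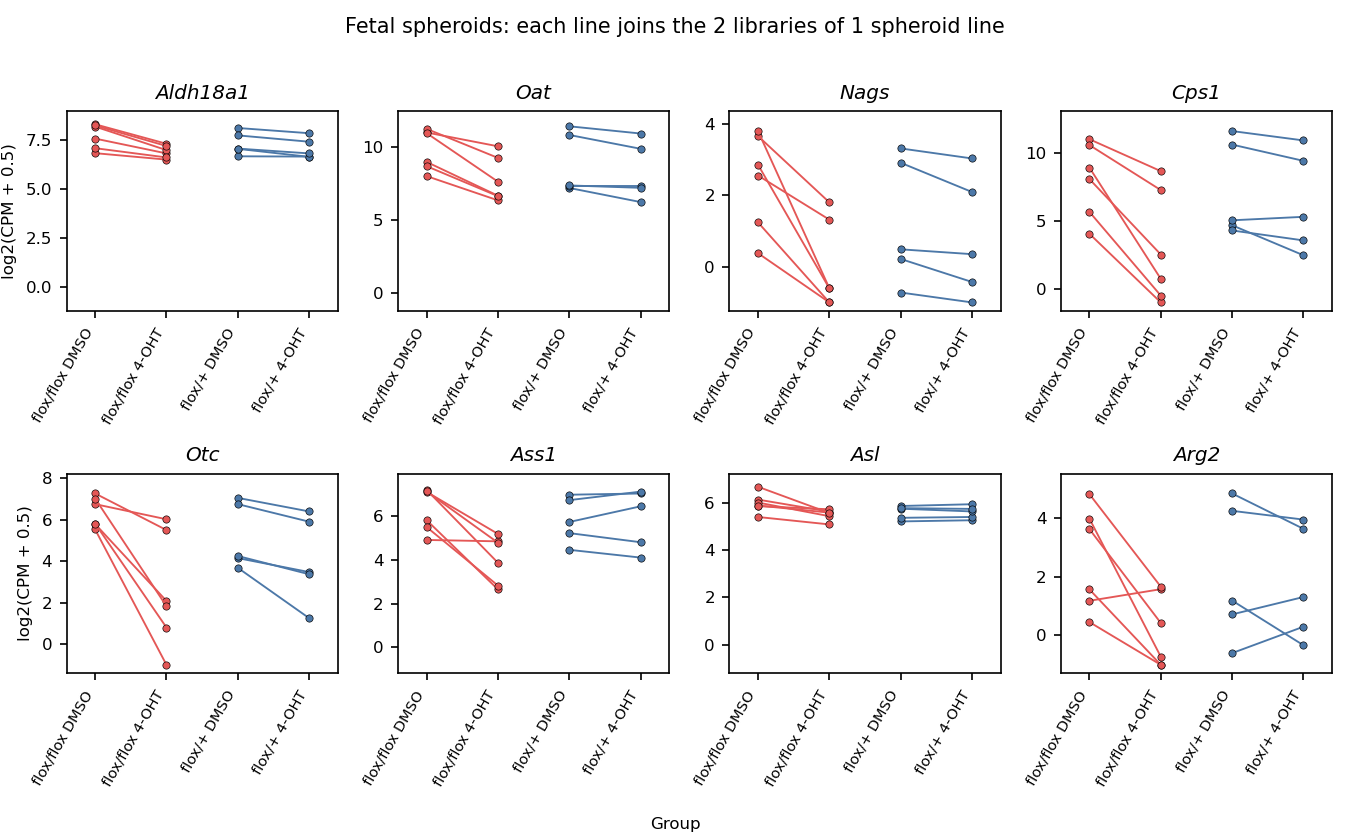
Level of each member as log2(CPM + 0.5) in fetal spheroids, where each line joins the DMSO and 4-OHT libraries of 1 spheroid line (flox/flox red, 6 lines; flox/+ blue, 5 lines). The log2 difference of Cps1 lay between -8.18 and -2.34 within the flox/flox lines and between -2.20 and 0.26 within the flox/+ lines, while the DMSO levels of the lines differ widely.

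Fetal and adult cultures of the control genotype were compared within 1 table. Between flox/+ spheroids and flox/+ organoids, both with 4-OHT, 1 member was higher in spheroids and 2 were lower, beside 25.1% and 22.8% of 14522 tested genes. Ass1 was higher by 3.08 (SE 0.65, adjusted p = 0.00437), at 87, 139, 131, 16.7 and 27.5 CPM in spheroids against 6.93, 8.61, 12.3 and 8.91 CPM in organoids, with no overlap. The spheroid group was mixed. Replicates 4 and 5 had stem cell marker sums of 1670 and 6380 CPM and Paneth sums of 1870 and 4810 CPM. The other lines had 159 to 169 and 98 to 201 CPM, and the organoids 5430 to 7360 and 5220 to 5760 CPM. The part of this mix in the differences was not tested. In spheroids Aldh18a1 was lower by a log2 difference of -1.13 (SE 0.25, adjusted p = 0.00437) and Arg2 of -2.70 (SE 0.96, adjusted p = 0.0445), the latter call being lost in 6 of 9 fits without 1 library. Nags (-2.57, adjusted p = 0.0668) was called without spheroid replicate 5 (adjusted p = 0.0144). Cps1 (-2.59, SE 1.47, adjusted p = 0.174) was lower in every spheroid library than in every organoid library but did not pass the test. Per kilobase, Ass1 ranked 4 of 8 members in flox/flox DMSO spheroids (38.3 CPM per kb), after Oat (548), Cps1 (132) and Aldh18a1 (55.4), whereas it was last in adult crypts.

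With A-485, 6 of the 7 tested members were lower at the middle and highest doses, and Asl was the exception. At 3 µM 5 of 7 were lower and 0 higher, beside 8.42% of 13724 tested genes lower. At 5 µM 6 of 7 were lower and 0 higher, beside 25.1% of genes lower, and at 10 µM 6 were lower and 1 higher, beside 32.6% and 29.4% of genes. The medians over the 7 members, Cps1 left out, were -1.29, -2.02 and -4.22 at 3, 5 and 10 µM, and those of all genes were 0.00, -0.02 and -0.05. The 3 doses share the 4 DMSO libraries, so the contrasts with DMSO are not independent of each other.

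Cps1 read 3820, 3580, 3840 and 4170 CPM with DMSO, 114, 438, 486 and 372 CPM at 3 µM, 31.2, 32.2, 26.4 and 18.3 CPM at 5 µM and 1.29, 1.27, 0.0663 and 1.55 CPM at 10 µM. No library of one dose overlapped the next, and the means at 3, 5 and 10 µM were 9.16%, 0.701% and 0.0271% of the DMSO mean. These values led to the choice of the members and carry no test between doses.

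Otc read 113, 128, 112 and 113 CPM with DMSO, 22.4, 40.1, 46.4 and 36.2 CPM at 3 µM, 12.3, 24.3, 24.5 and 17.5 CPM at 5 µM and 1.65, 3.29, 2.85 and 0 CPM at 10 µM. Otc fell at each dose, with log2 differences of -1.68 (SE 0.37, adjusted p = 0.0044), -2.57 (SE 0.38, adjusted p = 4.03e-05) and -5.81 (SE 0.47, adjusted p = 1.96e-08). The 10 µM library with no Otc read allows up to 0.347 CPM. All 4 lines were lower at each dose than with DMSO.

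Oat read 1370, 1640, 1740 and 1710 CPM with DMSO, 367, 696, 816 and 768 CPM at 3 µM, 245, 301, 384 and 167 CPM at 5 µM and 103, 95.9, 79.1 and 69.3 CPM at 10 µM. Oat fell at each dose too (-1.29, SE 0.24, adjusted p = 0.00129, then -2.56, SE 0.25, adjusted p = 4.04e-07, and -4.22, SE 0.27, adjusted p = 9.62e-10). Aldh18a1 changed little between the higher doses: it read 350, 355, 385 and 363 CPM with DMSO, 131 to 176 CPM at 3 µM, 97 to 115 CPM at 5 µM and 77.1 to 117 CPM at 10 µM. Its log2 differences were -1.23, -1.75 and -1.86 (SE 0.13 each), with adjusted p of 2.04e-06, 7.22e-09 and 8.99e-10.

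Nags read 17.4, 31.9, 26.8 and 23.3 CPM with DMSO, 7.16, 13.3, 18.4 and 18 CPM at 3 µM, 3.94, 12, 14.3 and 9.06 CPM at 5 µM and 1.22, 2.95, 1.13 and 0 CPM at 10 µM. It was not called at 3 µM (-0.81, adjusted p = 0.276, but 0.0349 with the line as a block), and it fell by 1.34 (SE 0.50, adjusted p = 0.0334) at 5 µM and by 4.15 (SE 0.58, adjusted p = 8.14e-06) at 10 µM. The 5 µM call was lost without 5 µM replicate 1 or 4 or DMSO replicate 2, 3 or 4. Arg2 read 48, 111, 81.8 and 70.1 CPM with DMSO, 9.82, 32, 42.8 and 16 CPM at 3 µM, 11.4, 23.6, 25.3 and 16.3 CPM at 5 µM and 0.573, 3.15, 2.32 and 0.997 CPM at 10 µM. Arg2 fell at each dose, with differences of -1.62 (adjusted p = 0.0174, lost without DMSO replicate 2 or 3 µM replicate 4), -2.02 (adjusted p = 0.00148) and -5.41 (adjusted p = 3.34e-07).

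The arginine-forming pair went in opposite directions at 10 µM. Ass1 read 18.9, 10.4, 10.4 and 10.8 CPM with DMSO, between 0 and 3.22 CPM at 3 µM, between 0 and 1.35 CPM at 5 µM and between 0 and 1.07 CPM at 10 µM, and fell at each dose with log2 differences of -3.03 (SE 0.96, adjusted p = 0.0357), -5.03 (SE 1.10, adjusted p = 0.00114) and -4.80 (SE 1.08, adjusted p = 0.000934). The 3 µM call of Ass1 held only when 3 µM replicate 2 or 4 was the library left out. Asl read 57.7, 49.9, 49.7 and 51.6 CPM with DMSO and 71, 70.7, 71.2 and 64.8 CPM at 10 µM, without overlap, and was higher by 0.41 (SE 0.16, adjusted p = 0.0369). That call was kept only without 10 µM replicate 4 or DMSO replicate 1, and Asl was called at neither lower dose (-0.25 and 0.05).

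The steps between doses do not use the DMSO libraries. From 3 to 5 µM, 2 of 7 members fell, Oat (-1.27, SE 0.24, adjusted p = 0.00117) and Aldh18a1 (-0.51, SE 0.12, adjusted p = 0.00561), beside 13.0% of genes lower, and Otc fell with the line as a block (adjusted p = 0.00261, against 0.0963 without it). Ass1 was also called in this step without 5 µM replicate 4 (-3.86, adjusted p = 0.0381). From 5 to 10 µM, 4 of 7 fell, beside 12.4% of genes lower: Arg2 (-3.39, SE 0.53, adjusted p = 0.000216), Otc (-3.24, SE 0.44, adjusted p = 6.14e-05), Nags (-2.81, SE 0.56, adjusted p = 0.00173) and Oat (-1.66, SE 0.25, adjusted p = 0.000116). Aldh18a1 (-0.12, SE 0.12) and Ass1 (0.22, SE 1.16) did not pass in that step, and Asl (0.36) passed only with the block (adjusted p = 0.0145).

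Marker sums moved with dose as well. Stem cell markers summed to 6420 to 7630 CPM with DMSO and to 893 to 1900, 324 to 406 and 44.2 to 76.2 CPM at 3, 5 and 10 µM, and enterocyte markers to 6480 to 12500 CPM with DMSO and 629 to 1170 CPM at 10 µM. Median goblet marker sums were 4820 CPM with DMSO and 7950, 4720 and 345 CPM at 3, 5 and 10 µM. Of 5 goblet markers, 2 were called higher and 0 lower at 3 µM, and 1 and 1 at 5 µM. At 10 µM 5 of 5 were lower. Pan-epithelial markers summed to 4880 to 5310 CPM with DMSO and 8770 to 10900 CPM at 10 µM. Their part in the members' falls was not tested. Per kilobase, Cps1 (694 CPM per kb) and Oat (684) led with DMSO, and Oat (36.8), Aldh18a1 (24.5) and Asl (14.4) led at 10 µM.

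**Figure D5:**
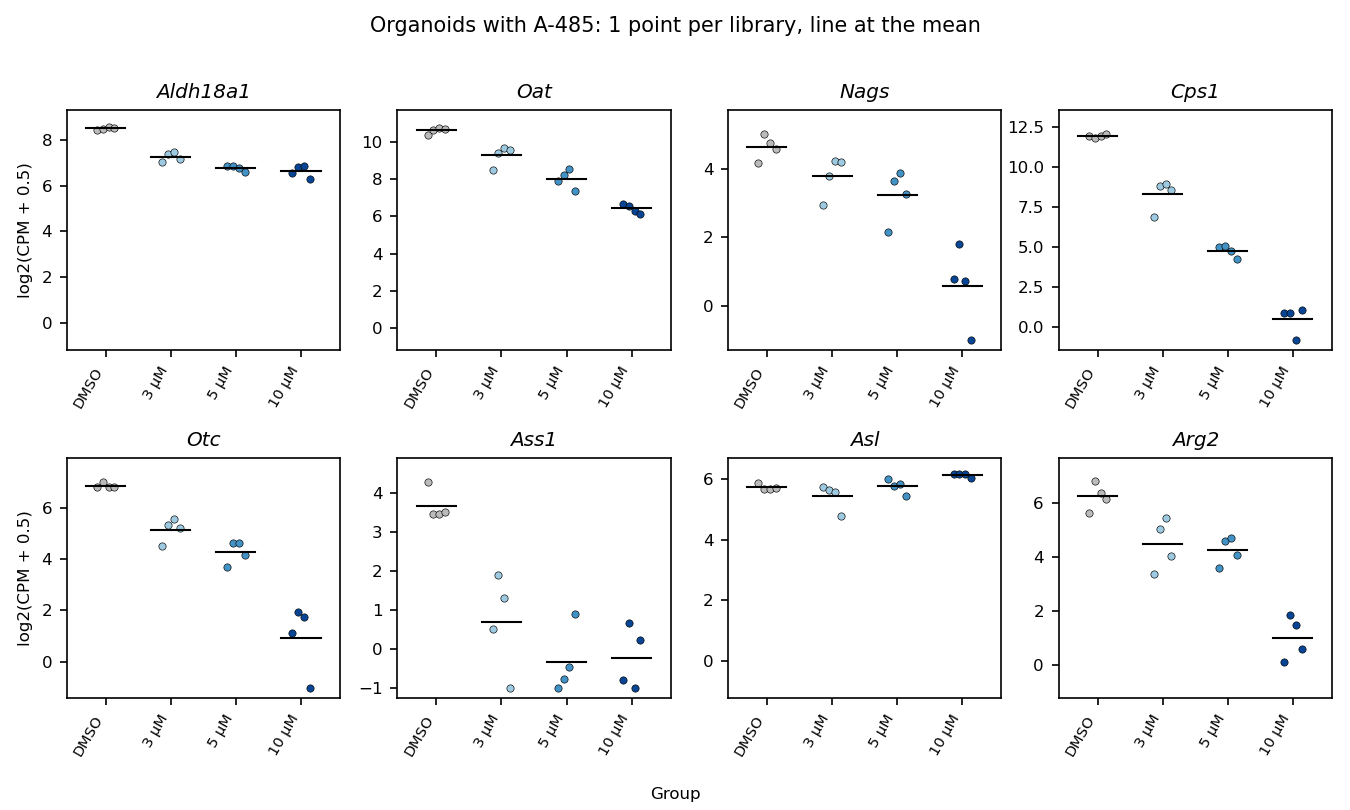
Level of each member as log2(CPM + 0.5) in organoids with DMSO or 3, 5 or 10 µM A-485, with 1 point per library (4 lines per dose) and a line at the mean of the log2 values. Cps1, Otc, Oat, Arg2 and Nags are lowest at 10 µM, Aldh18a1 lies near 100 CPM at both 5 and 10 µM, and Asl is higher at 10 µM (64.8 to 71.2 CPM) than with DMSO (49.7 to 57.7 CPM).

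Neighbouring genes of amino acid metabolism were counted from a list of 46, of which 45 were in the tables. In homozygous Rosa26-CreER crypts 7 of the 42 tested were higher and 10 lower, beside 8.63% and 11.6% of all tested genes, and in Vil1-CreER crypts 11 and 15 of 43, beside 11.6% and 17.7%. In the first organoid set 8 and 16 of 42 were higher and lower, beside 18.2% and 17.2%, and at 10 µM A-485 9 and 21 of 41, beside 29.4% and 32.6%. Of the 4 genes of glutamine and glutamate 1 was higher and 2 were lower in each of the 4 tissue comparisons of genotype. Among all tested genes, 18.2% were lower in Rosa26-CreER villi, and 20.9% were higher and 21.6% lower in Vil1-CreER villi. Genes named from this list were chosen after their values were seen. The glutaminase gene Gls2 was higher in all 4 tissue comparisons of genotype (log2 differences 1.06, 2.48, 1.47 and 1.84 in Rosa26-CreER crypts and villi and Vil1-CreER crypts and villi) and the spermine oxidase gene Smox likewise (1.12, 1.90, 1.82 and 1.83). Gls2 fell at 5 and 10 µM A-485 (-3.19 and -4.20) while Smox was higher (1.07 and 0.99).

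Of the transport genes on the list, 1 was higher and 3 lower of 13 tested in Rosa26-CreER crypts, 3 and 4 of 12 in Rosa26-CreER villi, 0 and 6 of 13 in Vil1-CreER crypts and 2 and 4 of 12 in Vil1-CreER villi. Of the proline genes, 0 were higher and 4 lower of 6 in Rosa26-CreER crypts, 0 and 2 of 5 in Rosa26-CreER villi, 1 and 4 of 6 in Vil1-CreER crypts and 0 and 4 of 6 in Vil1-CreER villi. Over all tested genes, 8.63% were higher and 11.6% lower in Rosa26-CreER crypts, and 11.6% and 17.7% in Vil1-CreER crypts. In Vil1-CreER villi the shares were 20.9% and 21.6%. In Rosa26-CreER villi 18.2% were lower, and 4504 of 13579 genes were called in either direction. Slc25a15, which carries ornithine and citrulline across the mitochondrial membrane, fell in Rosa26-CreER villi (-0.87), Vil1-CreER crypts (-0.96) and villi (-1.24), the first organoid set (-1.03) and at each A-485 dose (-1.52 at 5 and -2.76 at 10 µM), but was not called in Rosa26-CreER crypts (-0.50) or the second organoid set (-0.18). Pycrl, a proline-forming reductase of pyrroline-5-carboxylate, fell in all 4 tissue comparisons of genotype (-0.78, -1.10, -0.96 and -1.11) and at each A-485 dose (-0.92, -1.36 and -2.23). Cad, which makes carbamoyl phosphate for pyrimidines in the cytosol, was higher in Vil1-CreER crypts and villi (1.01 and 1.45) and in the first organoid set (0.73), and fell at 5 and 10 µM A-485 (-1.48 and -2.52). These are comparisons in edgeR's test over all genes, and the comparisons with DMSO in the A-485 experiment share its control libraries.

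The members' group means were also set against each other, each set being centred on its own mean. Over the 17 groups outside the A-485 experiment, a restriction chosen after seeing the data because the A-485 levels of Cps1 led to the choice of members, the highest Pearson correlations were 0.94 between Arg2 and Nags, 0.86 between Otc and Nags, 0.84 between Otc and Aldh18a1 and 0.81 between Cps1 and Oat. The value for Cps1 and Otc was 0.77, and Ass1 and Asl lay between -0.71 and 0.54 with the other members. Over all 21 groups the pairs in the same order gave 0.95, 0.89, 0.83, 0.90 and 0.87, the A-485 groups spanning the widest range of most members. Among 9086 genes at a mean of at least 3 log2 CPM, those most like Cps1 over all 21 groups were Gjb2, E2f2, Snd1, Wnk2 and Pdss1, with correlations of 0.92 to 0.94 over the 17 groups. Those most like Otc were Irf8, Nlrp6, Pde3a, Aadac and Mlxipl, with correlations of 0.87 to 0.96 over the 17 groups. These correlations describe groups that share libraries and lines. The genes most like Cps1 and Otc were picked over all 21 groups, the A-485 groups included. The 17 groups are part of those 21, so the correlations over them are no separate check of that choice.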

How the data were processed

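Raw read counts per gene were deposited by the authors in 4 tables covering 92 libraries (8652040 to 37611126 reads each). Libraries were poly(A)-selected and directional, per the labels' protocols, and reads were aligned with HISAT2 2.0.5 to GRCm38 (mm10), per the submitters' processing notes. The counting program, annotation release and strand setting are not given in the sources used here.

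From these counts, differential expression was tested in R 4.3.3 with edgeR 4.0.16 (low genes removed with filterByExpr, TMM normalization, and the quasi-likelihood test with its robust option, with Benjamini-Hochberg adjustment over all genes tested and calls at an adjusted p under 0.05). The code was tested on simulated data before use. Alternatives were DESeq2 1.42.0, no filter on low counts, other choices of groups in the fit, a replicate block, the presence of Ddx3y (above 1 CPM) as a covariate in tissue, and leaving out each library. CPM levels were scaled with TMM within 5 sets (Rosa26-CreER tissue, Vil1-CreER tissue, organoid set 1, organoid set 2 with spheroids, A-485), so levels are not compared across sets. Limits for a count of 0 use 3 reads and, like all intervals on reads, cover counting error only.

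The named genes are the 8 members, genes of a list of 46 neighbours in amino acid metabolism, and the 5 genes most correlated with Cps1 and with Otc. The members, the lists and the tests were chosen with earlier results of these data known. The labels do not state for each group that replicates are separate animals or cultures, and p-values measure only the spread between these samples.

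Samples are paired where the same line or animal gave both libraries: villus and crypt of an animal (taken from shared animal numbers in the labels), DMSO and 4-OHT of a line, and the A-485 doses. Replicate numbers follow these pairs except in homozygous Vil1-CreER mice, where animal 8974 gave crypt replicate 3 and villus replicate 4. Crypt and villus were paired there by animal. Deviations of same-numbered samples correlated at 0.398 to 0.793 in flox/flox spheroids, 0.664 to 0.873 in flox/+ spheroids, 0.358 to 0.521 in organoid set 1, 0.0645 to 0.350 in the A-485 experiment and -0.0329 to 0.290 between crypts and villi. Over 164 pairs within groups, no 2 libraries agreed within sampling noise (chi-square per degree of freedom at least 6.26).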

Additional observations from a re-analysis of the deposited data

Results flagged for a closer look

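Dixon's test was applied to 144 combinations of member and group with 4 to 10 libraries, and 8 of them held a library whose gap to the nearest other exceeded the 95% critical value. Chance gives about 1 in 20. The cause was not tested for any of them.

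In heterozygous Rosa26-CreER villi, replicate 3 was the lowest library for Asl (23 CPM against 26.4 to 28, gap 0.713 of the range), Arg2 (289 against 412 to 468, gap 0.738) and Nags (58.6 against 76.7 to 84, gap 0.749). That library had 24.5% mitochondrial reads, against 2.74 to 9.63% in the other 4, and the smallest total of its group (23088691 reads). In the A-485 experiment, Otc was highest in DMSO replicate 2 (128 CPM against 112 to 113, gap 0.893), and Ass1 was highest in DMSO replicate 1 (18.9 CPM against 10.4 to 10.8, gap 0.942), the library of the Eif4g2 +/+ line. Asl was lowest in replicate 4 both at 3 µM (26.9 CPM against 47.1 to 52.6, gap 0.834) and at 10 µM (64.8 CPM against 70.7 to 71.2, gap 0.925). Cps1 at 10 µM was lowest in replicate 3 (0.0663 CPM against 1.27 to 1.55, gap 0.888).

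The genotype effect differed between villi and crypts by an interaction test for Cps1 under Rosa26-CreER (1.50, adjusted p = 0.00982 in edgeR's test) and under Vil1-CreER (2.27, adjusted p = 0.00551). Under Vil1-CreER it also differed for Arg2 (1.56, adjusted p = 0.0166) and Oat (1.23, adjusted p = 0.0478).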

How the results depend on the processing

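Of the member results under alternatives other than leaving out a library, 873 kept their direction and their side of the threshold, 26 lost a call, 27 gained one and 9 turned direction. Leaving out 1 library at a time gave 1717, 92, 13 and 48 of these. Each turned value belonged to a difference that was not called. The cause of a change was not tested unless fewer genes or samples entered the fit. Low read numbers limit Ass1 in villi and at each A-485 dose, and Otc, Nags and Cps1 at 10 µM A-485. They also limit Cps1, Otc, Arg2 and Nags in spheroids with 4-OHT. All of these lie within a few reads of 0 in some libraries.

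Where numbers pair samples, the replicate block gave 777 genes and 2 members in the Rosa26-CreER interaction, 4649 genes and 8 members in flox/flox spheroids, 1 gene in flox/+ spheroids, 2758 genes and 6 members in the spheroid interaction and 3941 genes in the step from 5 to 10 µM A-485. It turned Aldh18a1 to -0.01 between villus and crypt of Vil1-CreER mice, changed the calls named with the results, and changed no other count of calls by over 1.5 times there. Where numbers do not pair samples, the block gave 30 genes for flox/+ against CreER-only organoids, 141 genes and 0 members between spheroid genotypes with 4-OHT, 5 members for spheroids against organoids, and turned Oat in Rosa26-CreER villi (-0.08), Cps1 (1.32) and Arg2 (-0.05) between spheroid genotypes with DMSO, and Asl for spheroids against organoids (0.00). In Rosa26-CreER crypts, same-numbered samples correlated at 0.0533 to 0.627. Apart from the interactions, fits with a block held only the groups compared, also where the main fit shared its spread over more groups.

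DESeq2 called 5 members in Rosa26-CreER crypts, 2891 genes in the Rosa26-CreER interaction, 145 for flox/+ against CreER-only organoids, 2 between spheroid genotypes with DMSO and 572 in the spheroid interaction. Without a filter on low counts the calls were 1221 genes in the Rosa26-CreER interaction, 60 for flox/+ against CreER-only organoids, 123 in the spheroid interaction, 1 member in flox/flox spheroids, 0 members between spheroid genotypes with 4-OHT and 3 at 3 µM A-485, and Aldh18a1 turned to -0.03 between Vil1-CreER villus and crypt and Asl to -0.00 in flox/+ spheroids. Ddx3y as a covariate left 2967 genes in Rosa26-CreER villi, with Oat at -0.58 there. Fitting only the groups compared gave 880 genes and 0 members between spheroid genotypes with 4-OHT, and 2229 genes from 3 to 5 µM. The prefix of the line name as a covariate gave 0 members there with 4-OHT and Cps1 at 0.11 with DMSO.

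Leaving out 1 library gave 1937 to 4732 genes in Rosa26-CreER crypts (2010, 2086 and 1937 without heterozygous replicate 2, 3 and 5, and 2027 without homozygous replicate 4, against 3198), 3223 to 5978 in Vil1-CreER crypts (3223 without homozygous replicate 1, against 4960), 1079 to 3068 genes and 1 to 2 members in the Rosa26-CreER interaction, 1456 to 3425 genes and 1 to 3 members in the Vil1-CreER interaction, 1 to 32 genes for flox/+ against CreER-only organoids, 131 to 362 in the spheroid interaction, 1 to 3 members in flox/flox spheroids, 0 to 1 between spheroid genotypes with 4-OHT and 3 to 5 at 3 µM A-485 (3 without DMSO replicate 2).

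Log2 differences that turned ranged as follows: in Rosa26-CreER villi Cps1 -0.13 to 0.07 and Oat -0.35 to 0.30, in Vil1-CreER crypts Ass1 -0.19 to 0.01, between Vil1-CreER villus and crypt Aldh18a1 -0.08 to 0.14, and for flox/flox against CreER-only organoids Arg2 -0.07 to 0.26. For flox/+ against CreER-only organoids they were Cps1 -0.04 to 0.14, Ass1 -0.08 to 0.22, Asl -0.07 to 0.01, Arg2 -0.29 to 0.03 and Nags -0.16 to 0.07. In flox/+ spheroids they were Cps1 -2.37 to 0.40, Ass1 -0.07 to 0.57, Asl -0.09 to 0.08, Arg2 -1.41 to 0.15, Oat -1.60 to 0.20 and Nags -1.59 to 0.21. Between spheroid genotypes they were Asl -0.17 to 0.00, Oat -1.58 to 0.13 and Aldh18a1 -0.32 to 0.02 with 4-OHT, and Cps1 -0.99 to 0.86 and Arg2 -0.63 to 0.90 with DMSO. The others were Asl at 5 µM A-485 (-0.04 to 0.14), Ass1 from 5 to 10 µM (-0.86 to 2.09) and Asl for spheroids against organoids (-0.15 to 0.05).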
